A study of Mus musculus with 43 samples.

Results

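Mitochondrial ribosomal protein genes were examined for binding of EKLF, the erythroid zinc-finger transcription factor encoded by Klf1, in fetal liver of Nan/+ and WT embryos at embryonic day E13.5. Members were all protein-coding genes of a RefSeq mouse gene table whose symbol begins with Mrpl or Mrps followed by a number, which gave 78 of 21521 genes on 17 chromosomes. Nan/+ embryos carry the Nan allele, which alters a zinc finger of EKLF, together with a WT copy of Klf1. WT embryos were littermates of the same strain, labelled as WT of the Nan strain. Livers were dispersed to single cells, crosslinked and immunoprecipitated with the anti-EKLF antibody 7B2a. The samples are labelled primary erythroid cells, and no sort is named. Of the 43 samples of the series, the results below rest on 3 EKLF ChIP libraries per genotype, which the authors combined into 1 list of called regions each. In Nan/+ a region can reflect the mutant or the WT protein, and these cannot be told apart.

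The mitochondrial ribosome translates the small set of respiratory chain proteins encoded by mitochondrial DNA. It has a large and a small subunit, and all its proteins are encoded in the nucleus and imported. Some of these proteins have counterparts in bacterial ribosomes, and others are specific to mitochondria. Developing red cells need active mitochondria for heme synthesis before they discard these organelles, and EKLF drives many genes of red cell maturation by binding CACCC-type sites.

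The Nan/+ list held 15564 regions and the WT list 9181, from ChIP libraries of 72023512 to 100763687 tags in Nan/+ and 74140385 to 103170594 tags in WT, per the file headers. Each list gives positions with no strength per region and no value per library, so there is no spread between replicates and no test could be run on any difference below. A region called in 1 list alone may lie just under the threshold in the other. Of 6 erythroid marker genes 6 had a region in each list, against 1 of 3 hepatoblast and 1 of 3 macrophage markers in each list. These counts cover the gene and 10 kb on either side, where all protein-coding genes gave 37.5% in Nan/+ and 33.5% in WT. The marker counts describe binding and not expression, so the cell type label was not checked by expression.

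The promoters of 9 members are given as examples of what lies under regions of each kind. Each line holds the 250 bases before the annotated start, 5′ to 3′ on the strand of the gene, from RefSeq on GRCm38.p6, the assembly behind mm10. Capitals mark matches on either strand to CCNCNCCC, the core of the EKLF site. These promoters were chosen after the regions were seen, 3 for each kind. The regions over the promoters of Mrps6, Mrps27, Mrpl51, Mrps5, Mrpl30 and Mrps7 also lay within 1 kb of the start of another protein-coding gene.

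The first set has regions of both lists over the promoter. Mrps6 lies on the plus strand (chr16:92058086-92058335), as do Mrps27 (chr13:99344536-99344785) and Mrpl51 (chr6:125191950-125192199). The 4 matches of Mrps6, the 1 of Mrps27 and the 1 of Mrpl51 all fell within regions of both lists.
Mrps6: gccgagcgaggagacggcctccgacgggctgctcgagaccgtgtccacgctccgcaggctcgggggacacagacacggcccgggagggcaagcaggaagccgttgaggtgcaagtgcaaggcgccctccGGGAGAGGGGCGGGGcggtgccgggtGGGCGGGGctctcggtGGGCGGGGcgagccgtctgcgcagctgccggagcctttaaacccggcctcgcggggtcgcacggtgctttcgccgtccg
Mrps27: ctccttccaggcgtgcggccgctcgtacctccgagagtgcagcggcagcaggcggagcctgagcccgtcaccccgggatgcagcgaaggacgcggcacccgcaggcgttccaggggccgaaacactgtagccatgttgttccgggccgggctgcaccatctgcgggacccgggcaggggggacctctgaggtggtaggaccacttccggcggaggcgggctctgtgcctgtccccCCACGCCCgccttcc
Mrpl51: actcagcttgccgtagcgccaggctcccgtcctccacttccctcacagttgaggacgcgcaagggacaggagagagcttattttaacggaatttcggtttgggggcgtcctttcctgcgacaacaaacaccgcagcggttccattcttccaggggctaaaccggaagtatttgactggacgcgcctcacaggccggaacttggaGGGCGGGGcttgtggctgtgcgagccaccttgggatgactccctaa

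The second set has a region of the Nan/+ list alone. Mrps5 (chr2:127587176-127587425), Mrpl52 (chr14:54426659-54426908) and Mrpl30 (chr1:37890227-37890476) are on the plus strand. Mrps5 held 2 overlapping matches, both inside its Nan/+ region, whereas Mrpl52 and Mrpl30 held 0 matches in these 250 bases. In the window of 300 bases used for the motif counts below, which runs past the start, Mrpl52 held 1 match and Mrpl30 held 0.
Mrps5: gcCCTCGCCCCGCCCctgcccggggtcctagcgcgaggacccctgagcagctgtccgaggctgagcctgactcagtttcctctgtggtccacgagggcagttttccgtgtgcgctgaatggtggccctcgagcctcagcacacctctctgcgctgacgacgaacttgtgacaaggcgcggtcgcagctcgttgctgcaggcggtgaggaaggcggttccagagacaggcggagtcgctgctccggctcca
Mrpl52: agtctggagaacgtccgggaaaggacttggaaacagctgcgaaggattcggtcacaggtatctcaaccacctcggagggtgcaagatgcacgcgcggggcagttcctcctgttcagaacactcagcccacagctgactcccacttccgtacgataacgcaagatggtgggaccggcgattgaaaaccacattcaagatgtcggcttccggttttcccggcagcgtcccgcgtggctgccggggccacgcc
Mrpl30: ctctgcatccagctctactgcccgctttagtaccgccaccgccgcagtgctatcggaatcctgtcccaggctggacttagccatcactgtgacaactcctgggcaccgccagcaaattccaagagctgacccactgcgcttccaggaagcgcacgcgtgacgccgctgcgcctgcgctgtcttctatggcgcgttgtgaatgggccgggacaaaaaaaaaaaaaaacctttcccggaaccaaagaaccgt

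The third set has a region of the WT list alone over the promoter. Mrps7 (chr11:115603890-115604139), Mrps23 (chr11:88204138-88204387) and Mrpl55 (chr11:59202236-59202485) are on the plus strand. The annotated start used for Mrps23 lies inside the gene as counted here, which runs from 88194106 to 88211507. All 5 matches of Mrps7 and all 4 of Mrpl55 lay inside the WT region, while the 4 overlapping matches of Mrps23 lay upstream of its WT region, which covered 56 of the 250 bases.
Mrps7: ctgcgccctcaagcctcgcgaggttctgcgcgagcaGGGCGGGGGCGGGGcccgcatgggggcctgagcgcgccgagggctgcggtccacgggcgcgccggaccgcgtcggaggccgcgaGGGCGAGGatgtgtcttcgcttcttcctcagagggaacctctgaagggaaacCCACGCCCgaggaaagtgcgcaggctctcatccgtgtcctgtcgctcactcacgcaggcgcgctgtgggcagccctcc
Mrps23: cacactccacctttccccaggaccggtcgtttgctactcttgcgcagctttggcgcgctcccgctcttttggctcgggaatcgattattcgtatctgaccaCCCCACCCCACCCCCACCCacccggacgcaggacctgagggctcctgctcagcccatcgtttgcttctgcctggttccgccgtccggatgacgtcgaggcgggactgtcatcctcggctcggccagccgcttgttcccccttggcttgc
Mrpl55: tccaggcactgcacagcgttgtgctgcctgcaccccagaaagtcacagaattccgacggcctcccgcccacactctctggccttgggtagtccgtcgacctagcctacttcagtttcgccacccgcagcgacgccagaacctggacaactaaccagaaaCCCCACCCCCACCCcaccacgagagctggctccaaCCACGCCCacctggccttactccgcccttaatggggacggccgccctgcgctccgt

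The first question was how many of these genes have EKLF regions in each genotype. A region was assigned to a gene when its centre fell between 10 kb before and 10 kb after the gene, the window used for all counts by gene. In the Nan/+ list 40 of 78 members had a region (51.3%), and in the WT list 38 of 78 (48.7%). Over all protein-coding genes the shares were 37.5% in Nan/+ and 33.5% in WT. Members are short, 7.69 kb long at the median where all protein-coding genes are 17.4 kb, so other genes were also weighted to the lengths of the members in 10 strata. That weighting gave 31.8% in Nan/+ and 31.6% in WT, which amounts to 24.8 genes in Nan/+ and 24.7 in WT for a set of this size. Regions in both lists were found at 25 members (32.1%), against 23.5% of all genes and 20.3% by length. A further 15 members (19.2%) had regions in Nan/+ alone, where all genes gave 14.1% and the weighting by length 11.5%. Another 13 (16.7%) had regions in WT alone, where all genes gave 10.1% and the weighting by length 11.4%. The remaining 25 members had none in either list, 19 of the 51 large subunit genes and 6 of the 26 small subunit genes. The first in alphabetical order were Mrpl11, Mrpl13, Mrpl15, Mrpl16, Mrpl17 and Mrpl18.

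Members lie close to other genes, and this bears on their counts. Another protein-coding gene lay within 10 kb of 66 of 78 members (84.6%), against 62.6% of all protein-coding genes. Of the regions at members, 45 of 57 in Nan/+ and 45 of 54 in WT were assigned to another protein-coding gene as well. When each region counted only for its nearest protein-coding gene, 19 members had a region in Nan/+ (24.4%) and 21 in WT (26.9%). The same rule gave 29.4% of all genes in Nan/+ and 24.8% in WT, and by length 21.1% in Nan/+ and 21.0% in WT. The Nan/+ share of members then lay below that of all genes. Regions in both lists were then found at 9 members (11.5%), also below the 15.6% of all genes, with 10.9% by length. Regions in Nan/+ alone were found at 10 members (12.8%), against 13.8% of all genes and 10.2% by length. Regions in WT alone were found at 12 (15.4%), against 9.18% of all genes and 10.1% by length. The larger counts by window therefore include regions nearer to neighbouring genes.

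**Figure D1:**
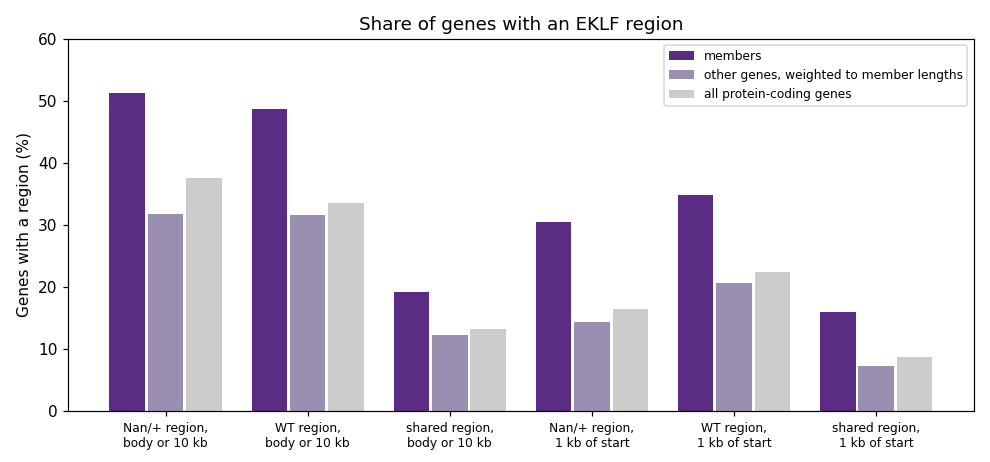
Share of genes with an EKLF region, in percent, for members, for other protein-coding genes weighted to the lengths of the members, and for all protein-coding genes, by list and by window. Each bar is 1 share without replicates. Members stood at 51.3% in Nan/+ and 48.7% in WT for the body and 10 kb flanks, above both other shares, a difference that was not tested.

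The regions themselves were then compared. The 57 Nan/+ regions at members had a median width of 225 bp, and 21 of them (36.8%) had the minimum width of that list, 176 bp. At other protein-coding genes the Nan/+ median was 176 bp and 51.9% had the minimum width. The 54 WT regions at members had a median width of 498.5 bp, against 405 bp at other genes. Widths depend on calling settings that differ between the lists, so they were read within a list only. Overlap with the other list was found for 19 of 57 Nan/+ regions at members (33.3%) and 19 of 54 WT regions (35.2%). At other protein-coding genes these shares were 16.4% in Nan/+ and 26.0% in WT. Overlapping regions belonged to 15 members (19.2%), where all genes gave 13.3% and the weighting by length 12.3%. Counted for the nearest gene only, they belonged to 4 members (5.13%), below the 8.54% of all genes and the 6.88% by length. Of the 38 Nan/+ regions that overlapped no WT region, 16 (42.1%) lay within 1 kb of the annotated start of a protein-coding gene, 11 of them at a member. At other protein-coding genes that share was 12.3%. Of the 35 WT regions that overlapped no Nan/+ region, 27 (77.1%) lay within 1 kb of such a start, 15 of them at a member, against 37.6% at other genes. Gene length and spacing differ between members and other genes, and their part in these shares was not tested.

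The gene with most regions in both lists was Mrpl48, which encodes a large subunit protein specific to mitochondria (chromosome 7, 100545779 to 100608301). It had 4 Nan/+ and 5 WT regions, of which 2 in each list overlapped. The overlapping pair at its 5′ end lay at 100607329 to 100607701 in Nan/+ and 100607178 to 100607787 in WT, also within 1 kb of the start of Rab6a. The other pair lay in the flank beyond its 3′ end at the start of Coa4. Mrps18b, for one of the small subunit relatives of bacterial S18 (chromosome 17, 35910380 to 35916440), had 3 Nan/+ and 4 WT regions, and all 3 Nan/+ regions overlapped WT regions. The widest Nan/+ region at any member, 1157 bp, was at its start, where the WT region was 867 bp wide, and this segment is shared with Ppp1r10. Mrps34, a small subunit protein gene, had 1 Nan/+ region of the minimum width and 4 WT regions of 217 to 672 bp, with 0 overlapping. Mrpl37 and Mrps27 had 3 Nan/+ regions and 1 WT region each, and at both genes the WT region overlapped the Nan/+ region at the start. The added Nan/+ regions of Mrps27, which encodes a pentatricopeptide-repeat protein, lay 6140 and 38633.5 bp downstream of the start, inside the gene. Mrpl49 had 3 WT regions of 367 to 1157 bp and 0 in Nan/+. The region of 1157 bp lay in its flank within 1 kb of the start of Syvn1, and that of 427 bp within 1 kb of the start of Znhit2. The region of 367 bp, at the start of Mrpl49, was also within 1 kb of the start of Fau.

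**Figure D2:**
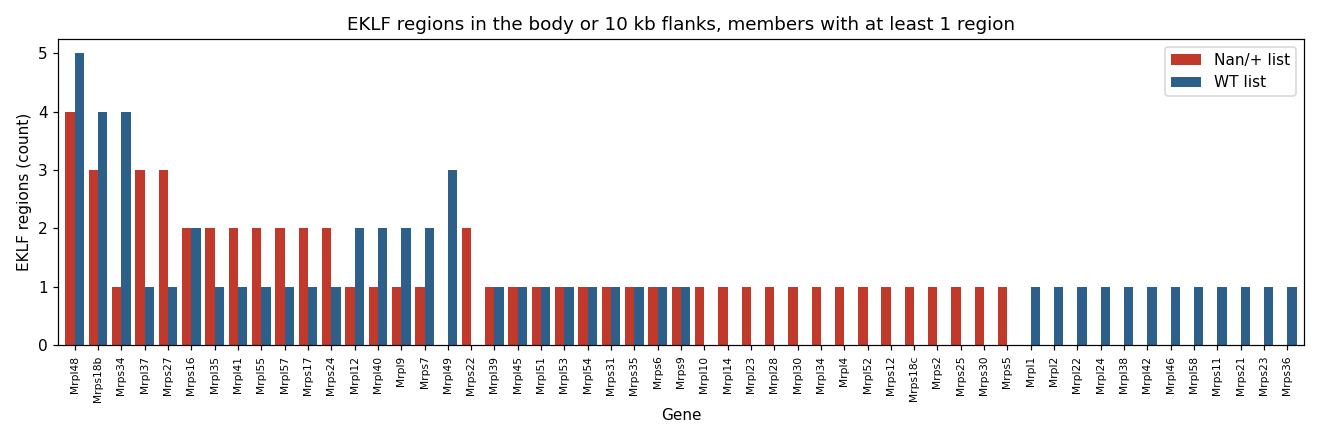
Number of EKLF regions in the body or 10 kb flanks of each member with at least 1 region, in the Nan/+ list and in the WT list. Bars are counts from 1 list per genotype. Mrpl48 led with 4 in Nan/+ and 5 in WT, and most other members had 1 or 2 in a list.

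Regions at the 5′ ends were examined next, since a start was annotated for 69 of the 78 members in the promoter table. A region centred within 1 kb of the start was found at 21 of 69 members in Nan/+ (30.4%) and at 24 of 69 in WT (34.8%). All protein-coding genes with an annotated start gave 16.4% in Nan/+ and 22.4% in WT, and the weighting by length gave 14.3% and 20.6%. By class, 9 members had a start region in Nan/+ alone, 12 in WT alone and 12 in both lists. Over all genes these shares were 6.44%, 12.4% and 9.97%. In 11 of the 12 members with both (91.7%) the regions overlapped, as they did in 87.8% of all genes with both. Counted over all annotated starts, overlapping start regions were found at 15.9% of members and 8.75% of all genes. The exception was Mrpl41, whose Nan/+ region lay 823.5 bp upstream and whose WT region was centred 25 bp downstream of the start. Of the 9 members without an annotated start, Mrpl38, Mrpl54, Mrps34 and Mrps35 had a WT region within 1 kb of a gene end and 0 had a Nan/+ region there. Of the 4247 protein-coding genes without an annotated start, 14.6% had a Nan/+ region and 19.0% a WT region that close to an end.

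Among genes with overlapping start regions, Mrps6, for a small subunit protein with a bacterial counterpart (chromosome 16, 92058336 to 92112227), had a Nan/+ region of 762 bp and a WT region of 359 bp. Mrpl12, for the counterpart of the bacterial stalk protein L7/L12 (chromosome 11, 120484637 to 120488754), had a Nan/+ region of 325 bp centred 460 bp upstream and a WT region of 737 bp centred 22 bp upstream. These regions overlapped at their edges, and the Nan/+ region did not reach the 250 bases before the start. Mrpl51 had a Nan/+ region of the minimum width, 176 bp, within a WT region of 775 bp. Mrps16 had 557 bp in Nan/+ and 789 bp in WT, and Mrpl39 had 522 bp in Nan/+ and 405 bp in WT. Mrps24, Mrpl37, Mrpl57, Mrps27, Mrpl48 and Mrps18b made up the rest. Mrps7, Mrpl35, Mrpl53 and Mrps17 had overlapping regions in their flanks only. At Mrpl35 these were 760 bp wide in Nan/+ and 759 bp in WT and lay at the start of the neighbouring gene Immt, which encodes a protein of the mitochondrial inner membrane.

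The 9 members with a start region in Nan/+ alone were Mrpl14, Mrpl28, Mrpl30, Mrpl34, Mrpl52, Mrps5, Mrps12, Mrps22 and Mrps25. None of the 9 had a WT region anywhere in its window, whereas 32.6% of all genes with a start region in Nan/+ alone had one. That share was not weighted by length, and members are shorter than all genes at the median, which makes their windows shorter. The widest was at Mrps25, at 573 bp, followed by Mrpl34 at 426 bp, Mrps5 at 421 bp and Mrps12 at 408 bp. Mrps12 encodes the counterpart of bacterial S12, a protein of the decoding site, and its region (chromosome 7, 28741503 to 28741910) lay over its start and within 1 kb of the start of Sars2, the mitochondrial seryl-tRNA synthetase gene. Only the region of Mrps22 had the minimum width of 176 bp, and a second Nan/+ region of 231 bp lay in the flank of that gene. The other 6 members of the Nan/+ class had a region away from the start or no annotated start. These included Mrpl4, with 242 bp inside the gene, and Mrps30, with 225 bp beyond its 3′ end.

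The 12 members with a start region in WT alone were Mrpl1, Mrpl9, Mrpl40, Mrpl42, Mrpl45, Mrpl46, Mrpl49, Mrpl55, Mrps7, Mrps11, Mrps23 and Mrps31. In 6 of the 12 a Nan/+ region lay elsewhere in the window, a share of 50% against 50.9% over all genes of that class, without weighting by length. At Mrpl9 the Nan/+ region had 176 bp and lay 2063.5 bp upstream, against a WT region of 584 bp centred 190.5 bp upstream. At Mrpl45 the Nan/+ region had 176 bp and lay 5409.5 bp upstream, against 570 bp in WT at the start. Mrpl46 and Mrps11 face away from each other on chromosome 7, and a single WT region of 506 bp (78782955 to 78783460) lay over both starts. The widest WT start region without a Nan/+ counterpart was at Mrps7, a small subunit protein, at 886 bp (chromosome 11, 115603567 to 115604452), which was also within 1 kb of the start of Gga3. Mrps21 and Mrpl22 had WT regions of 876 and 529 bp that lay at the starts of their neighbours Prpf3 and Gemin5.

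**Figure D3:**
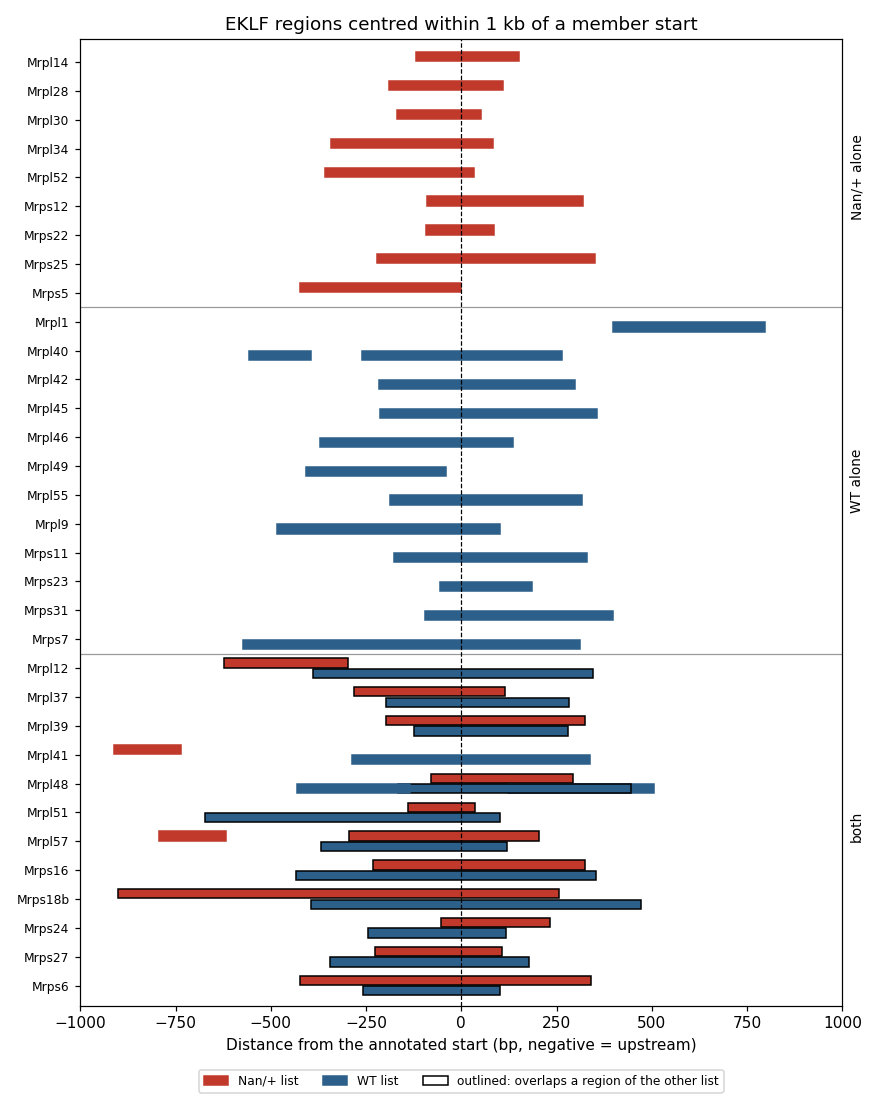
Extent of each EKLF region centred within 1 kb of an annotated member start, in bp from that start, with 9 members bound in Nan/+ alone, 12 in WT alone and 12 in both lists. Outlined bars overlap a region of the other list. Bars of Mrpl48 and Mrps16, which have more than 1 annotated start, are drawn from the nearest of them. Bars of these genes can therefore have different zero points, and their order along the axis is not that on the chromosome.

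Start sharing was common among these genes. The start of another protein-coding gene lay within 1 kb of the start of 26 of 69 members (37.7%), against 10.1% of all genes with an annotated start. Of these 26 members 12 had a start region in Nan/+ (46.2%) and 13 in WT (50%), while all genes with such a neighbour gave 31.9% in Nan/+ and 49.6% in WT. Of the other 43 members 9 had one in Nan/+ (20.9%) and 11 in WT (25.6%), against 14.7% and 19.3% of all genes without such a neighbour. In WT, members with a shared start therefore stood close to the background for shared starts, and the position of a region between a pair of starts does not say which gene it serves.

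Members were then split by the kind of protein, a grouping drawn up from the standard ribosomal protein nomenclature after the regions had been seen. Of the 32 genes for proteins specific to mitochondria, 20 had a region in Nan/+ (62.5%) and 22 in WT (68.8%). These 32 include Mrps18b, which has regions in both lists. Its protein is a relative of bacterial S18 but carries a mitochondria-specific name, mS40, in that nomenclature. The same holds for Mrps18a, named mL66 and also among the 32, which has a region in neither list. Of the 45 genes for proteins with a bacterial counterpart, 20 had a region in Nan/+ (44.4%) and 15 in WT (33.3%). By length, other genes would give 9.94 genes in Nan/+ and 9.84 in WT for the first kind, and 14.5 in Nan/+ and 14.5 in WT for the second. The median lengths were 7.45 kb for the first kind and 7.63 kb for the second. In the WT list genes of the second kind stood near their length-weighted count, and the difference between the kinds was not tested. At annotated starts, 11 of 28 genes of the first kind had a region in Nan/+ (39.3%) and 16 in WT (57.1%). Of the second kind 10 of 40 had one in Nan/+ (25%) and 8 of 40 in WT (20%). All genes with an annotated start gave 16.4% in Nan/+ and 22.4% in WT, so in WT the second kind stood near that share. Proteins with a bacterial counterpart account for 45 of the 78 members, for 11 of the 15 with a region in Nan/+ alone, among them Mrpl28, Mrpl30, Mrpl34 and Mrps5, and for 6 of the 13 with a region in WT alone. By subunit, 17 of 26 small subunit genes had a region in Nan/+ (65.4%) and 14 in WT (53.8%). Of 51 large subunit genes 23 had one in Nan/+ (45.1%) and 23 in WT (45.1%). All protein-coding genes gave 37.5% in Nan/+ and 33.5% in WT, and the difference between subunits was not tested. Mrps30 and Mrps18a were counted with the large subunit, where their proteins reside. Mrps36, whose protein belongs to the 2-oxoglutarate dehydrogenase complex in mammals, was counted with neither and had 1 WT region, in its flank at the start of Cdk7.

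**Figure D4:**
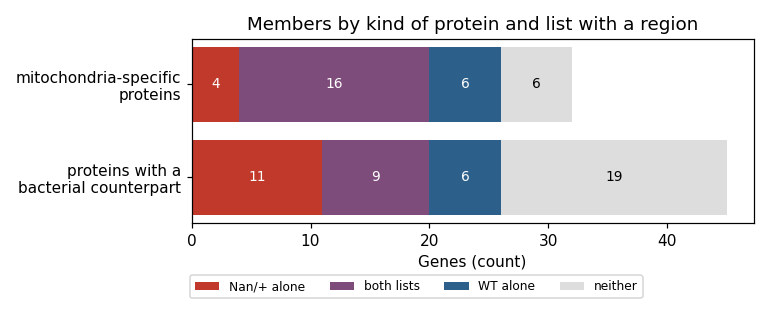
Number of members by kind of protein and by the list in which they had an EKLF region, for 32 genes of mitochondria-specific proteins and 45 genes of proteins with a bacterial counterpart. In the first group 6 genes had a region in neither list, and in the second 19.

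The letters of the promoters were read in windows of 300 bases, from 250 before to 50 after the first listed start, on both strands. CCNCACCC and CCNCGCCC, which differ in the base before the last 3, are both contained in CCNCNCCC. CCNCNCCC was present in 45 of 69 member windows (65.2%), against 56.4% of all windows. A Nan/+ region alone overlapped 9 of 69 member windows (13.0%, against 4.79% of all windows) and a WT region alone 14 (20.3%, against 12.1%). Regions of both lists overlapped 9 (13.0%, against 7.39%). CCNCNCCC was present in 5 of 9 member windows with a Nan/+ region alone and 11 of 14 with a WT region alone. It was present in 8 of 9 with both and 21 of 37 with neither. All genes gave 72.2% with a Nan/+ region alone, 74.2% with a WT region alone, 79.0% with both and 50.4% with neither. In windows with both, CCNCGCCC was present in 8 of 9 and CCNCACCC in 0 of 9. Over all genes with both, these shares were 61.0% and 20.8%. In member windows with a Nan/+ region alone CCNCGCCC was present in 4 of 9 and CCNCACCC in 1 of 9, and with a WT region alone in 4 of 14 and 5 of 14. All genes gave 51.6% and 18.9% with a Nan/+ region alone and 51.5% and 20.6% with a WT region alone, so over the genome these shares hardly differed between the classes with 1 list. With so few member windows the shares are a description only. GC content moved with the classes, with a median of 57.7% in member windows with a Nan/+ region alone, 62.7% with a WT region alone, 66.3% with both and 58.0% with neither. Its part in the motif counts was not tested.

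Other motifs were searched as a description of these promoters. CCGGAAG, the core recognised by ETS factors such as GABP, was present in 25 of 69 member windows (36.2%), against 12.05% of all windows. By class it was present in 4 of 9 windows with a Nan/+ region alone, 1 of 14 with a WT region alone, 5 of 9 with both and 15 of 37 with neither. Over all genes these shares were 23.1% with a Nan/+ region alone, 23.7% with a WT region alone, 20.3% with both and 8.69% with neither. The palindromic site of NRF1, a factor for nuclear genes of mitochondrial proteins, was present in 13 of 69 (18.8%), against 6.67% of all windows. AGATAA, bound by the erythroid factor Gata1 among others, was present in 11 of 69 (15.9%), against 10.0% of all windows.

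Other genes of mitochondrial gene expression were counted in the same windows. Of 5 subunit genes without the Mrpl or Mrps prefix, 4 had a region in Nan/+ and 4 in WT. Gadd45gip1 had 1 Nan/+ region and 5 WT regions, and Ptcd3 had 2 Nan/+ regions and 0 WT regions. Of 24 assembly and ribosomal RNA modification genes, 12 had a region in Nan/+ and 9 in WT, with Mrm1, an rRNA methyltransferase, at 2 Nan/+ and 6 WT regions. Of 14 translation factors 7 had one in Nan/+ and 8 in WT, and Mtrf1, a release factor, had 3 in each. Of 19 mitochondrial tRNA synthetases 10 had one in Nan/+ and 11 in WT. Fars2, for phenylalanine and by far the longest of those named, had 33 Nan/+ and 9 WT regions. Of 9 genes for transcription and replication of mitochondrial DNA, 6 had one in Nan/+ and 3 in WT. Most regions in this group were at Tfb2m, with 3 in Nan/+ and 1 in WT, and at Polg2, with 1 in Nan/+ and 3 in WT. At both genes 1 region of each list overlapped. Polrmt, the mitochondrial RNA polymerase, and Tfam, which packages mitochondrial DNA, had 1 region in Nan/+ and 0 in WT each. A region in Nan/+ alone was found at 3 of these 9 genes, against 14.1% of all protein-coding genes. All protein-coding genes gave 37.5% in Nan/+ and 33.5% in WT in the same window.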

How the data were processed

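EKLF ChIP was measured in Nan/+ and WT fetal liver, with 3 libraries per genotype combined by the authors into 1 list each. Per the file headers, regions were called with HOMER on mm10 against 2 distinct input libraries filling 3 places, with -q 0.01 and -f 4, followed by its own DESeq2 step (-fdr 0.01, -log2fold 2). The peak size was 175 bp and the minimum distance 300 bp for Nan/+, and 125 bp and 250 bp for WT. Further tools in the submitters' processing notes are Bowtie2 2.1 and SAMtools 1.1. In both deposited lists the score was 1 in every row, so no strength per region was used. BED positions were converted to counting from 1.

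Genes came from a RefSeq table of GRCm38.p6. Of 21900 protein-coding genes, 269 on Y or mitochondrial sequence or unplaced, and 110 off the main chromosome sequences, were left out. Regions were assigned by centre and called overlapping at 1 bp or more, with Python 3.11.15 and pandas 2.3.3. Assignment was tested on simulated regions. Starts and promoters matched 69 of 78 members and 17274 genes in all. Length weighting summed, over members, the share of other genes in the same of 10 length strata.

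Members and lists were chosen with earlier results of these data known. The naming rule took members with overlapping start regions (up to 10), members with regions in 1 genotype alone (up to 10 each), the 5 with most regions per list, 6 without regions in alphabetical order and up to 4 genes of each related list. Other genes named were chosen after their values were seen. No test was run, because the lists hold no values per library. All samples other than EKLF ChIP were not analysed here on their own.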

Additional observations from a re-analysis of the deposited data

How the results depend on the processing

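No paired analysis was possible because the 3 libraries of a genotype were combined before calling, and for the same reason no library could be left out. Of 43 alternative values, 30 stayed within 1.5 times of the reported count and 13 did not. With 50 kb flanks, 42 members (53.8%, all genes 42.5%) had regions in both lists, 24 (30.8%, all genes 23.9%) had overlapping regions and 6 (7.69%) had a region in WT alone, close to the 7.54% of all genes. Within 1 kb of the start, or of either end where no strand was given, 21 members had a Nan/+ region (26.9%, all genes 16.0%), 12 had both (15.4%, all genes 9.61%) and 9 had Nan/+ alone (11.5%, all genes 6.44%), as the smaller window implies. Counting each region for its nearest gene only gave 19 members in Nan/+, 21 in WT, 9 in both (11.5%, all genes 15.6%) and 4 with overlapping regions (5.13%, all genes 8.54%), so members in Nan/+, in both and with overlap moved from above to below all genes. Without Nan/+ regions of the minimum width, 21 members (26.9%, all genes 15.4%) had a region in WT alone, since fewer Nan/+ regions entered. With regions wider than the median of their list 13 had both (16.7%, all genes 13.6%), and with a reciprocal overlap of 50% 9 had overlapping regions (11.5%, all genes 8.52%). Stricter peak values were replaced by width, because the score is constant. The lists give no tags per region, so depth at single regions is unknown.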
